A study of Mus musculus with 4 samples.

Results

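10 genes of the FGF-ERK and LIF-STAT3 signalling pathways were followed through mouse preimplantation development: Fgf4, Fgfr1, Fgfr2, Spry2, Spry4, Dusp6, Etv5, Socs3, Stat3 and Il6st. They were matched by symbol, and all 10 were among the 20171 genes of the gene table. The isoform table assigned 18 of its 68012 isoforms to 8 of them, and held none for Fgfr2 or Spry2. Single oocytes, blastomeres and cultured cells had been read with HIT-scISOseq, in which full-length cDNA carrying a cell barcode and a unique molecular identifier (UMI, a tag that marks one starting molecule) is joined end to end and sequenced on a long-read instrument. The strain in the labels was DBA/2J x C57BL/6J, and the study's methods name C57BL/6J females given PMSG and then hCG, hormones that bring on ovulation, and DBA/2NCrl males. Times are hours after hCG. Metaphase II (MII) oocytes came from unmated females at 20 h. Mated females gave zygotes between 22 and 24 h, early 2-cell embryos (E2C) between 30 and 32 h and late 2-cell embryos (L2C) between 46 and 48 h. Embryos of 4 cells were taken between 54 and 56 h and those of 8 cells between 68 and 70 h. The 16-cell and 32-cell embryos shared a window from 78 to 80 h, and early blastocysts followed from 88 to 90 h. Mouse embryonic stem cells (mESC) were of the line E14 Tg2A, kept on gelatin in a medium with fetal bovine serum. Whether that medium held LIF is not given in the sources used here. No gene was altered and no inhibitor or cytokine was compared, so stage is the only contrast that was named.

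The tables held 161 cells. 121 of them named their embryo: 10 oocytes, 9 zygotes, 10 cells of 5 E2C embryos, 11 of 6 L2C embryos, 17 of 5 4-cell embryos, 26 of 4 8-cell embryos and 38 of 4 16-cell embryos. The 22 32-cell, 13 blastocyst and 5 mESC cells named no embryo, and so are given by the range over cells with no test. Their run and their stage cannot be told apart. Values are copies per 100,000 UMIs of a cell, with the mean taken over an embryo's cells, and errors are SDs over embryos. Column names gave no run and an embryo number might have been used again in another run, so that p-values measure the spread between embryos as named. No run term could be fitted, so run and stage cannot be told apart in the tested comparisons either. Cells held 4985 to 389775 UMIs (median 38914), with stage medians that ran from 246466 in zygotes to 22726 in mESC. At those medians, 1 UMI was worth 0.511 copies in an oocyte, 3.08 in a 4-cell blastomere and 4.40 in an mESC. Marker genes followed the stage labels in part. The summed level of 4 late 2-cell genes had a median of 6.70 copies in E2C, 7.84 in L2C and 9.95 in 4-cell blastomeres. Mean levels were higher in E2C than in L2C cells for Zscan4c (4.33 and 1.18), Zscan4d (5.82 and 2.49) and Zfp352 (1.24 and 0.96). Tdpoz4 was highest at the 4-cell stage (7.47, beside 3.38 in L2C). The summed level of 5 oocyte genes had a median over cells of 3547 copies in oocytes and 102 in L2C blastomeres. The median was then 204 at the 4-cell stage, 110 at the 8-cell and 199 at the 16-cell stage, 19.2 for 32-cell blastomeres and 272 for blastocyst cells. It was 132 in mESC, all of which held H1foo, Oosp1 and Gdf9, while Bmp15 was at 0 there. Of the 5, Bmp15 had its highest mean in E2C (167 copies, beside 44.2 in oocytes) and Zp3 in L2C (24.3, beside 9.91 in oocytes). RNA of oocyte genes was thus read in late cells and in the cultured line, and its part in the low late values of members that oocytes also held (Spry4, Stat3, Il6st, Fgfr2 and Fgfr1) was not tested. The summed level of 5 pluripotency genes was highest in mESC, with a median of 1188 copies per cell. Most of that sum was Dppa5a, with a mean of 875 copies in mESC and of 226 in L2C cells. Dnmt3b had its highest mean in 32-cell cells (5.90, beside 5.40 in mESC). Of 8 cumulus and granulosa cell genes, 6 were in the table and 3 were detected in oocytes, where they summed to 4.42 to 9.81 copies, while Fst, Vcan and Tnfaip6 were at 0. Most of that sum was Cyp19a1, read in all 10 oocytes with a mean of 7.45 copies, beside 0.055 for Fshr and 0.097 for Has2. None of the 6 was detected in L2C embryos.

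FGF ligands bind FGF receptors on the cell surface and switch on the RAS, RAF, MEK and ERK kinases, which activate ETS-family transcription factors and also induce their own brakes, the Sprouty proteins and the dual-specificity phosphatases. LIF acts through a receptor that contains the shared subunit gp130, whose JAK kinases phosphorylate STAT3, and STAT3 in turn induces the inhibitor SOCS3. In the mouse blastocyst, FGF4 from the epiblast drives neighbouring inner cells toward primitive endoderm through FGFR2 and FGFR1, and LIF-STAT3 signalling sustains naive pluripotency in cultured embryonic stem cells.

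Sequences are shown for the 3 members whose long reads bore on gene structure or on a regulatory motif. The Socs3 promoter is given because Socs3, a feedback inhibitor induced by STAT3, had the largest fitted rise in log2 fold change of the members. It was also the only one of 9 promoters of 8 members to hold a STAT motif (TTCNNNGAA, searched on both strands). Fgfr1 and Spry4 had no entry. In the RefSeq promoter table (GRCm38.p6, 250 bases before to 50 after each start), 8.30% of 32851 promoters held that motif. An ETS motif (CCGGAAG, 8.86% of promoters) and an AP1 motif (TGANTCA, 7.81%) were in none of the 9. These are matches of letters and not sites shown to be bound. The Socs3 promoter lies on the minus strand of chr11:117969317-117969616 and is written 5′ to 3′ along that strand, with the STAT motif, which starts at position 97, in capitals.

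Socs3 promoter: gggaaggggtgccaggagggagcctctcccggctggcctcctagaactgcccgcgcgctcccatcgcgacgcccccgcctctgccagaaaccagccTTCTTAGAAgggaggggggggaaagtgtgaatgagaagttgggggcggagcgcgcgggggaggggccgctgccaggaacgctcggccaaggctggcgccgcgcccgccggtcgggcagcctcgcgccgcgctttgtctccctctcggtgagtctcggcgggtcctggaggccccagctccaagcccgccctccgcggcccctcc

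The next sequences come from GENCODE M21 transcripts (GRCm38, plus strand). Exon 2 of Fgf4 (chr7:144862232-144862335) is a coding exon that the most counted Fgf4 isoforms of cleavage embryos lacked. Exons 5 (chr13:112481424-112481544) and 6 (chr13:112487709-112487869) of Il6st flank the intron in which both Il6st isoforms of the table ended, and the capitals mark the 10 bases on each side of that intron.

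Fgf4 exon 2: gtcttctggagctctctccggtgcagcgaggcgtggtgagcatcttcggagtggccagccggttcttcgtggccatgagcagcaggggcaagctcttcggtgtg
Il6st exon 5: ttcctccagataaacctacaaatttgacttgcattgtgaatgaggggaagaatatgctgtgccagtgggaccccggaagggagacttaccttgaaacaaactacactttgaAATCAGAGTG
Il6st exon 6: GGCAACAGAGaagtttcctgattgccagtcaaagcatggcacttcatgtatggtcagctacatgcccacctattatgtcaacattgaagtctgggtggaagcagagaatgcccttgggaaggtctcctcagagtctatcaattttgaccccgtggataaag

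**Figure D1:**
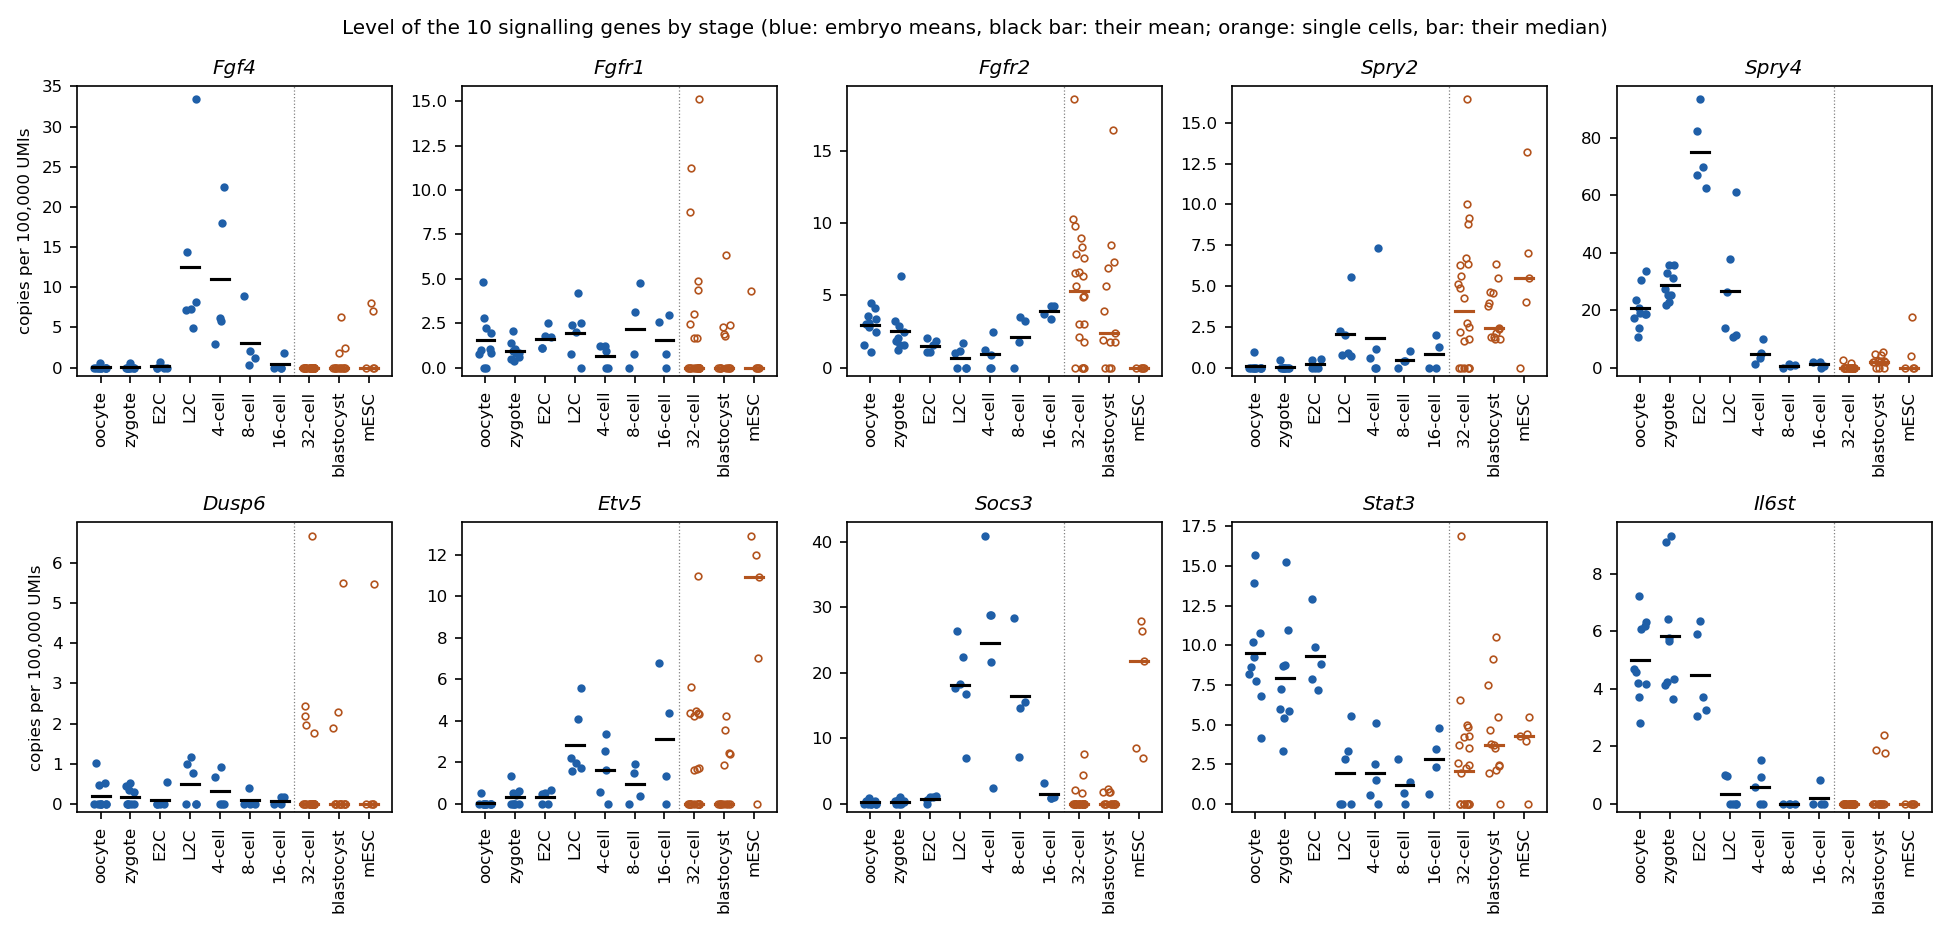
Level of each of the 10 genes by stage, in copies per 100,000 UMIs. Points are embryos from oocyte to 16-cell and single cells for the 32-cell, blastocyst and mESC groups. Spry4 peaked in E2C embryos at 62.5 to 93.4 copies. Fgf4 and Socs3 rose to 4.93 copies or more in every L2C embryo. Stat3 and Il6st were lower in every L2C embryo than in any E2C embryo.

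Stage by stage, the members moved most between E2C and L2C. A gene was called changed where the fit across all genes (limma on log2(copies + 1)) gave an absolute log2 fold change above 1 together with a raw p below 0.01, the study's limits. A fold change on this scale understates that of a gene at low level. 9 members passed the filter of at least 1 copy in at least 4 embryos, as did 11682 genes in all. Dusp6 did not. Between E2C and L2C, Fgf4, Socs3 and Etv5 rose and Spry4, Stat3 and Il6st fell, 6 of 9, where 48.4% of all genes were called (25.6% rose and 22.8% fell). No member was called from oocyte to zygote (3.24% of all genes were). 1 rose from zygote to E2C (7.27%), 1 fell from L2C to 4-cell (6.69%), 2 fell from 4-cell to 8-cell (15.0%) and, from 8-cell to 16-cell, 1 rose and 1 fell (3.36%). The median log2 fold change over the 9 members was 0.17 from E2C to L2C, beside 0.03 over all genes, and it fell by 0.55 from 4-cell to 8-cell, where the median of all genes fell by 0.16. Of the 12 calls, 11 had an adjusted p under 0.05. Adjusted p-values here are limma's, with Benjamini-Hochberg adjustment over all 11682 genes.

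**Figure D2:**
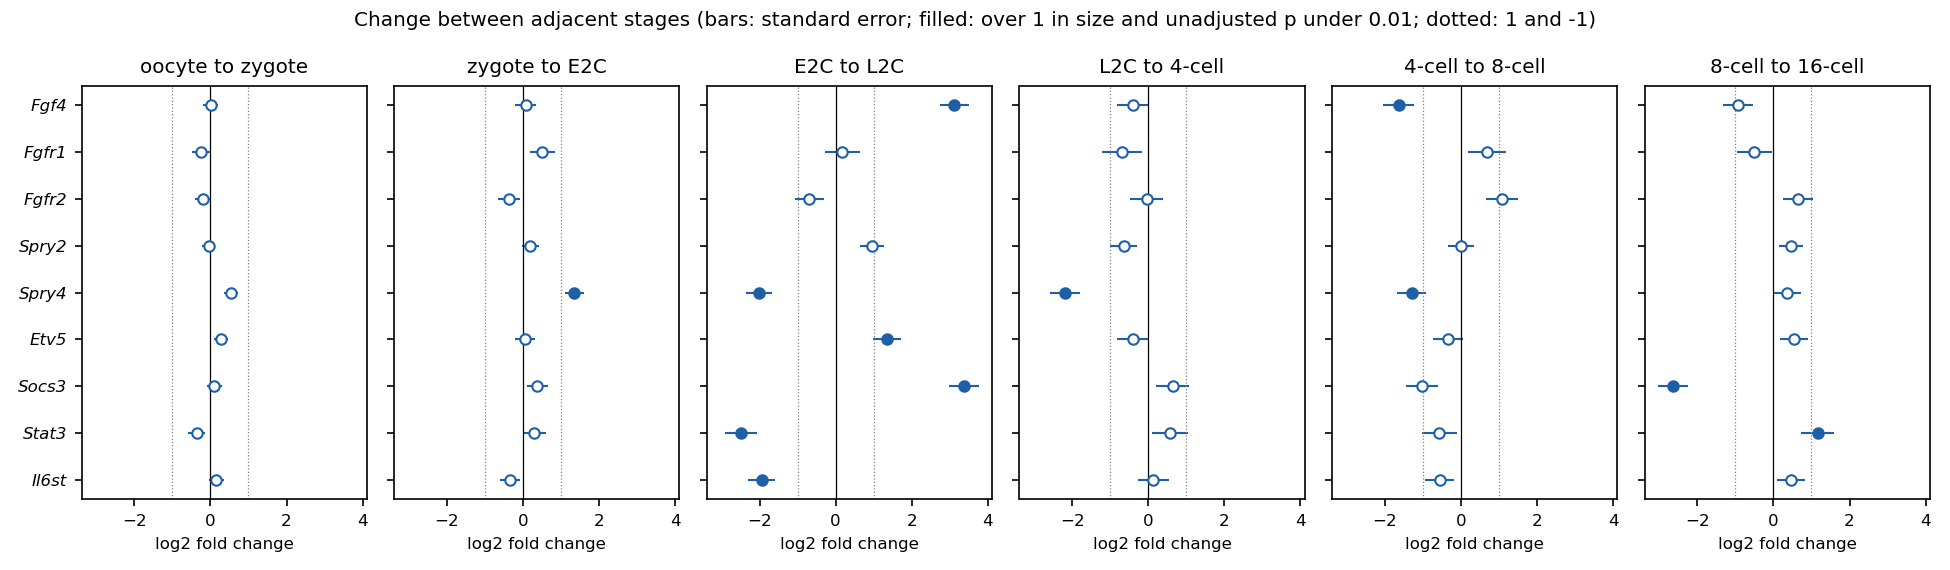
Fitted log2 fold change of the 9 tested members at each of the 6 adjacent-stage comparisons, with SE bars. Filled points passed the call rule. The E2C to L2C comparison holds 6 of the 12 calls, from a rise of 3.38 for Socs3 to a Stat3 value of -2.49.

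Fgf4, the ligand (chr7:144847367-144865243, plus strand, mm10), was nearly silent before the late 2-cell stage. 1 UMI was read in 1 of 10 oocytes, in 1 of 9 zygotes and in 1 of 5 E2C embryos. The 6 L2C embryos then held 4.93 to 33.4 copies, with a median of 7.75 and a mean of 12.6 ± 10.7 (SD, n = 6). Each of the 11 L2C blastomeres held at least 1 Fgf4 UMI, and the groups did not overlap. The rise from E2C was 3.11 on the log2 scale (SE 0.38, adjusted p = 2.49e-10). The embryo at 33.4 copies was read as 1 blastomere of 17971 UMIs, and Fgf4 was called without it too.

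Fgf4 then declined through cleavage. The 4-cell embryos held 5.78, 22.5, 18.0, 2.92 and 6.19 copies and the 8-cell embryos 0.38, 2.05, 8.87 and 1.12, so that 1 8-cell embryo lay within the 4-cell range. The 4-cell embryo at 22.5 copies held 3 UMIs, 2 of them in a cell of 4985 UMIs. The 8-cell embryo at 8.87 held 3 UMIs in 3 cells. Over the summed UMIs of a stage, Fgf4 stood at 6.87 copies in 4-cell and 1.53 in 8-cell blastomeres, beside embryo means of 11.1 and 3.10. The fall from 4-cell to 8-cell was called (fell by 1.63 on the log2 scale, SE 0.41, adjusted p = 0.00297). That call was lost with a pseudocount of 5, with DESeq2 and in a fit of the 2 stages alone. In 16-cell embryos Fgf4 was read in 1 of 4 embryos, at 1.87 copies, and the further change was not called (adjusted p = 0.287) except without 8-cell embryo 1 (fell by 1.25) or 16-cell embryo 2 (fell by 1.23), or with no filter on low values. In 32-cell blastomeres 0 of 22 cells held a UMI, which allows a share of up to 13.6% of cells with a UMI and a level of 0.39 copies over the stage. At the median depth of these cells 1 UMI was worth 2.88 copies, so that cells below that level could read 0. In the blastocyst 3 of 13 cells held Fgf4, at 1.86 to 6.32 copies, and 2 of 5 mESC held it.

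The receptors were low throughout. Fgfr1 (chr8:25513654-25575718, plus strand), a receptor tyrosine kinase for FGFs, had means between 0.66 copies (4-cell) and 2.167 (8-cell) over the stages with named embryos and was called at no comparison. It was read in 9 of 22 32-cell, 5 of 13 blastocyst and 1 of 5 mESC cells. Fgfr2 (chr7:130162451-133123350, minus strand), the second receptor, had its lowest mean in L2C embryos and its highest in 16-cell ones, among the stages with named embryos. It held 2.96 ± 1.0503 copies in oocytes (SD, n = 10) and 1.52 ± 0.44 in E2C embryos (n = 5), and was read in 3 of 6 L2C embryos with a mean of 0.65. By the 16-cell stage all 4 embryos held between 3.34 and 4.29 copies, 3.90 ± 0.45 (n = 4). No single step of this course was called, the nearest being 4-cell to 8-cell with a log2 fold change of 1.08 (limma, adjusted p = 0.0724). That step passed without 4-cell embryo 2 (1.16) or 8-cell embryo 3 (1.25), and with a pseudocount of 0.5 (1.47).

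After the 16-cell stage Fgfr2 was in most embryo cells. 17 of 22 32-cell blastomeres held a UMI (median 5.29 copies, up to 18.6), as did 10 of 13 blastocyst cells (median 2.39, up to 16.5). None of the 5 mESC held one, where a count of 0 allows up to 2.90 copies. When each cell was thinned to 10000 UMIs, the share of cells with an Fgfr2 UMI was 20.0% at the 8-cell, 31.3% at the 16-cell and 40.9% at the 32-cell stage. Unthinned shares were 42.3, 57.9 and 77.3%, so the order was the same at equal depth.

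Of the feedback inhibitors, Spry4 (chr18:38586247-38601415, minus strand), a Sprouty protein that restrains signalling between receptor and ERK, was present in every oocyte, rose once and then fell step by step. Oocytes held 10.8 to 33.6 copies with a median of 18.9 (20.6 ± 6.95, SD, n = 10), and zygotes 21.8 to 35.7 with a median of 27.5 (28.7 ± 5.35, n = 9). The E2C embryos held 62.5, 93.4, 82.4, 69.9 and 66.9 copies, every one above every zygote. The rise was 1.35 on the log2 scale (SE 0.26, adjusted p = 1.08e-04). It is the only call of a member before the late 2-cell stage.

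Spry4 fell at each of the next 3 steps, and the embryos of neighbouring stages did not overlap at any of them. The margins were narrow and rested on few UMIs or shallow cells. The L2C embryo at 61.2 copies was read as 1 blastomere of 17971 UMIs. 4-cell embryo 2 held 10.0 copies from 1 UMI in a cell of 4985 UMIs, beside 10.6 in the lowest L2C embryo. 4-cell embryo 4 held 1.26 copies from 2 UMIs, and 8-cell embryo 1 held 1.13 from 3 UMIs. L2C embryos held 10.6 to 61.2 copies with a median of 20.0 (26.8 ± 19.9, SD, n = 6), a drop from E2C that was called (fell by 2.01, SE 0.35, adjusted p = 1.95e-06). The 4-cell embryos held 5.13, 10.0, 4.55, 1.26 and 3.25 copies (fell by 2.19, SE 0.40, adjusted p = 8.80e-04). In 8-cell embryos the mean was 0.58 ± 0.50 (n = 4), and the fall from the 4-cell stage was 1.29 (fell by 1.29, SE 0.38, adjusted p = 0.0122). That last call was lost with a pseudocount of 5, with DESeq2 and in a fit of the 2 stages alone. Spry4 was read again in 10 of 13 blastocyst cells, at up to 5.49 copies, against 2 of 22 32-cell blastomeres. The summed level of the 5 oocyte genes moved the same way, at 6.29 to 52.9 copies in 32-cell and 164 to 450.2 in blastocyst cells. Mean levels rose for Gdf9 (2.45 to 23.8), H1foo (5.07 to 139.3) and Oosp1 (10.1 to 115.6). Zp3 was near level (0.784 and 0.936), and Bmp15 was lower in blastocyst cells (0.325, beside 1.1991). The part of oocyte RNA in the Spry4 reading was not tested.

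Spry2 (chr14:105891947-105896819, minus strand), the other Sprouty member, took the opposite course at the late 2-cell stage. It stood at a mean of 0.20 copies or less up to E2C and was read in all 6 L2C embryos, at 0.74 to 5.56 copies with a median of 1.43. L2C embryos 1, 3, 5 and 6 held 1 Spry2 UMI each, as did E2C embryos 1 and 3. At the median depth, 1 UMI was worth 1.09 copies in an E2C and 1.72 in an L2C blastomere. In copies, E2C and L2C embryos did not overlap, which depends in part on that difference in depth. The log2 fold change of 0.97 was under the limit (adjusted p = 0.0071). It passed without E2C embryo 1 (1.06) or 3 (1.055), and with no filter, no array weights, a depth-weighted mean or a pseudocount of 0.5. Spry2 was then found in 16 of 22 32-cell blastomeres with a median of 3.49 copies, in all 13 blastocyst cells at 1.77 to 6.32, and in 4 of 5 mESC with a median of 5.46. At 10000 UMIs per cell the blastocyst share was 30.7%, beside 34.6% at the 32-cell and 10.5% at the 16-cell stage. The full share in the blastocyst was thus read at greater depth (median 47437 UMIs, against 34772.5 in 32-cell blastomeres).

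Dusp6 (chr10:99263231-99267489, plus strand), a phosphatase that inactivates ERK and a common readout of ERK activity, was at the limit of detection. Only 29 UMIs were read over all 161 cells. Its stage means were at most 0.49 copies among the embryos, and it was read in 5 of 22 32-cell, 3 of 13 blastocyst and 1 of 5 mESC cells. No change in it was detectable at this depth.

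Etv5 (chr16:22381309-22439719, minus strand), an ETS transcription factor induced by ERK signalling, rose at the late 2-cell stage from a low start. Its mean was 0.33 ± 0.31 copies in E2C embryos (SD, n = 5) and 2.86 ± 1.60 in L2C ones (n = 6), which ran from 1.58 to 5.56 with a median of 2.11. All 6 L2C embryos lay above all 5 E2C embryos (log2 fold change 1.36, SE 0.37, adjusted p = 0.00135). The L2C embryo at 5.56 copies held 1 Etv5 UMI, as did E2C embryos 1, 2 and 3. The gap in copies thus depends in part on depth. Of the 27 alternatives that tested Etv5, the call was lost only with a pseudocount of 5. Neither edgeR nor DESeq2 tested it. Later stage means were 1.63 copies at the 4-cell, 0.95 at the 8-cell and 3.14 at the 16-cell stage. 4 of 5 mESC held Etv5, with a median of 10.9 copies.

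Of the LIF-STAT3 genes, Il6st and Stat3 fell at the step at which Socs3 rose. Il6st (chr13:112464070-112510086, plus strand) encodes gp130, the signalling subunit of the LIF receptor. It held 4.995 ± 1.39 copies in oocytes (SD, n = 10) and 5.84 ± 2.11 in zygotes (n = 9), and the E2C embryos held 3.28, 6.36, 3.06, 3.72 and 5.92. In L2C embryos it was read in 2 of 6, at up to 1.004 copies, and no L2C embryo reached an E2C one. The fall was called (fell by 1.94, SE 0.36, adjusted p = 4.76e-06), other than with a pseudocount of 5. Afterwards Il6st stayed scarce: 3 UMIs in 4-cell embryos, none in 26 8-cell cells (a count of 0 allows 0.38 copies), 2 in 16-cell embryos, none in 22 32-cell cells and 3 in blastocyst cells. None was read in 5 mESC, a line in which a count of 0 allows 2.90 copies.

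Stat3 (chr11:100885098-100939540, minus strand), the transcription factor of the LIF pathway, fell at the same step and was read more widely later. Oocytes held 4.17 to 15.7 copies with a median of 8.96 (9.55 ± 3.35, SD, n = 10), and zygotes 7.95 ± 3.53 (n = 9). The E2C embryos held 8.83, 9.89, 7.89, 7.17 and 12.95 copies, while L2C embryos ran from 0 (3 of 6) to 5.56. These groups did not overlap, and the fall was called (fell by 2.49, SE 0.43, adjusted p = 1.09e-06).

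From 8-cell (1.23 ± 1.204 copies, SD, n = 4) to 16-cell (2.82 ± 1.77, n = 4) Stat3 passed the call rule upward with a log2 fold change of 1.17 (SE 0.43). Its adjusted p by limma was 0.201, the embryos overlapped, and the call was lost under 9 of 29 alternatives, among them no filter on low values, no array weights, the median over cells, and leaving out 8-cell embryo 1 or 2 or 16-cell embryo 1 or 2. The share of cells with a Stat3 UMI was 8.56% at the 8-cell and 29.8% at the 16-cell stage at 10000 UMIs per cell (19.2 and 55.3% unthinned). Stat3 was read in 12 of 22 32-cell, 12 of 13 blastocyst and 4 of 5 mESC cells. The summed level of the oocyte genes was also higher in 16-cell than in 8-cell blastomeres and in blastocyst than in 32-cell cells, by the medians above. From 8-cell to 16-cell, mean levels rose for Gdf9, H1foo, Oosp1 and Bmp15, while Zp3 fell from 5.3995 to 1.096 copies. Bmp15 was lower in blastocyst than in 32-cell cells. The part of oocyte RNA in these Stat3 values was not tested.

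Socs3 (chr11:117966079-117970047, minus strand), the member whose promoter is printed above, was low up to E2C, rose in L2C embryos and was low again by the 16-cell stage. Its mean was 0.25 copies in oocytes, 0.37 in zygotes and 0.78 in E2C embryos. L2C embryos held 7.04 to 26.4 copies with a median of 18.0 (18.1 ± 6.53, SD, n = 6). All 6 lay above all 5 E2C embryos. The log2 fold change of 3.38 (SE 0.39, adjusted p = 5.40e-11) was the largest fitted rise among the members. Fgf4 had 3.11 from a lower E2C mean (0.14 copies), and this scale understates the change of a gene at low level. Socs3 then held at 24.5 ± 14.1 copies in 4-cell embryos (n = 5), at 21.6, 2.45, 28.9, 40.9 and 28.8. The lowest was the embryo that held the shallowest cell (4985 UMIs).

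Socs3 came down in 2 steps, of which the second was called. The 8-cell embryos held 7.16, 14.6, 28.3 and 15.6 copies, and the change from the 4-cell stage missed the rule (fell by 1.03, limma's adjusted p = 0.0879). It passed without 4-cell embryo 2 (fell by 1.23) and without 8-cell embryo 3 (fell by 1.16) or 4 (fell by 1.22). The 16-cell embryos held 0.90, 1.052, 0.99 and 3.18, all below every 8-cell embryo (fell by 2.65, SE 0.39, adjusted p = 2.21e-05). Thinned to 10000 UMIs, 91.0% of 4-cell, 64.0% of 8-cell and 12.5% of 16-cell blastomeres held a Socs3 UMI. It was read in 4 of 22 32-cell and 4 of 13 blastocyst cells. All 5 mESC held it, at 7.01 to 28.0 copies with a median of 21.8.

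The long reads showed what kind of transcript lay behind these levels, as far as the isoform table kept it. Of the 9 members with 50 or more UMIs in the gene table, all kept a smaller share of them in the isoform table than the median of 45.5% over 9912 such genes (quartiles 16.5 and 72.9%). Socs3 kept 42.3%, Fgf4 39.2%, Spry4 22.6% and Il6st 16.1%. Fgfr1 kept 7.45%, Etv5 5.36% and Stat3 4.90%, and Fgfr2 and Spry2 none. Isoform values therefore describe a minority of each member's molecules.

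For Fgf4, the isoforms of cleavage embryos mostly carried none of the coding sequence. The reference transcript has 3 exons and 606 coding bases that start at chr7:144861505. The isoforms PB.70076.3 (2 exons, 18 UMIs) and PB.70076.4 (3 exons, 17 UMIs), classed as not in the catalogue, began at the upstream edge of the annotated gene, 14019 bases before that transcript. Both ended at 144856877, 4628 bases before the first coding base, so neither holds the exon 2 printed above. PB.70076.18 (14 UMIs), a full splice match at 144861382 to 144863084, covered all 606 coding bases.

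Of the Fgf4 UMIs in kept isoforms, 29 of 35 in L2C and 4-cell embryos lacked coding bases, 82.9% (95% exact binomial interval 66.4 to 93.4%, counting error only). In 16-cell embryos it was 0 of 5, which allows up to 52.2%. A further 56 of the 91 Fgf4 UMIs of L2C and 4-cell embryos were in no kept isoform, and their structure was not analysed here. The gene-level rise of Fgf4 therefore counts molecules of both kinds. By stage, both upstream isoforms were called upward from E2C to L2C, PB.70076.3 with a log2 fold change of 1.10 (adjusted p = 0.0112) and PB.70076.4 with 1.21 (adjusted p = 0.0084), by limma over all isoforms. The coding isoform was not called (0.57, adjusted p = 0.175), and the difference between isoforms was not tested. PB.70076.4 fell again from 4-cell to 8-cell (fell by 1.16, adjusted p = 0.0395). Embryos of the stages compared overlapped in each of these isoform calls.

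**Figure D3:**
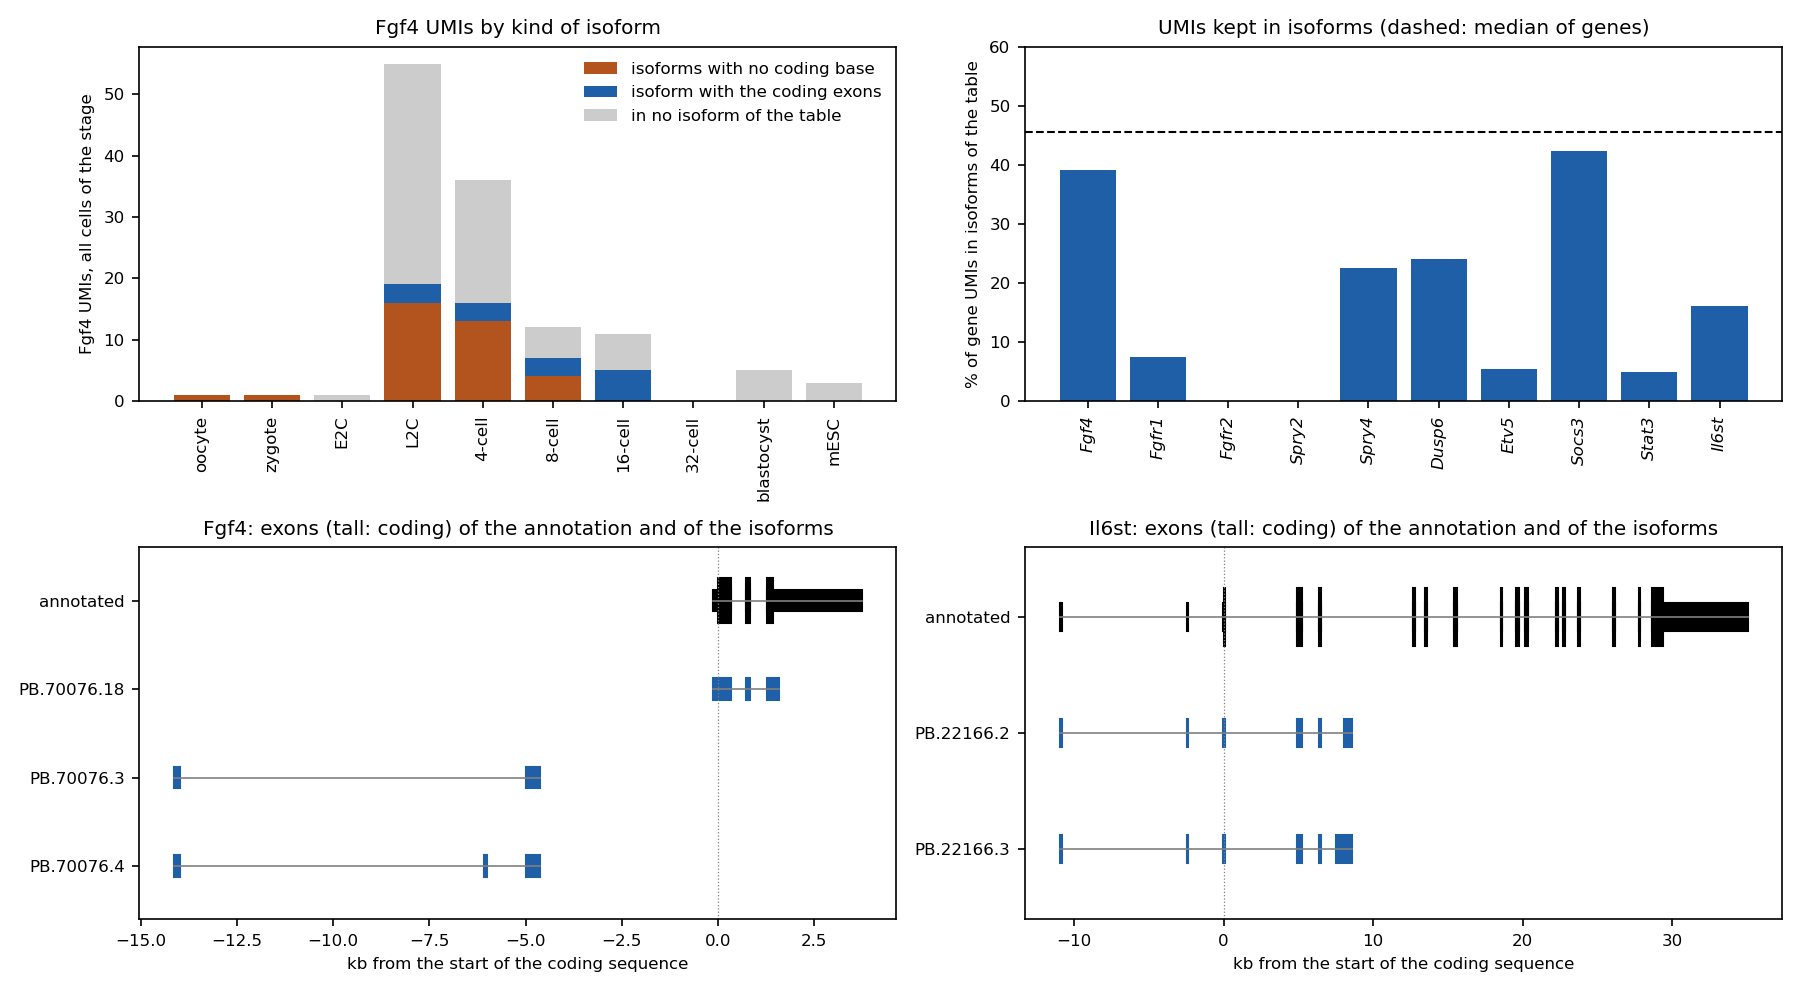
Upper left, Fgf4 UMIs of all cells of a stage, split into isoforms with no coding base, the isoform with the coding exons, and UMIs in no isoform of the table. Upper right, percent of each gene's UMIs kept in the isoform table, with the median of 9912 genes (45.5%) dashed. Lower panels, exons of the annotated transcript and of the isoforms of Fgf4 and Il6st in kb from the coding start, with coding parts of the annotation drawn tall. The upstream Fgf4 isoforms end 4628 bases before the coding start, and the Il6st isoforms cover 17.8% of the coding bases.

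For Il6st, both isoforms of the table were short. PB.22166.2 (40 UMIs) and PB.22166.3 (6 UMIs) began at chr13:112464091 and ended at 112483623 and 112483612, inside the intron between the printed exons 5 and 6 of 17. They covered 491 of 2751 coding bases (17.8%). The UMIs of PB.22166.2 came from oocytes (13), zygotes (23) and E2C embryos (4) only, and no later cell held one. With 285 Il6st UMIs in the gene table, 46 were in these isoforms, and PB.22166.2, the one that passed the filter, was called at no comparison.

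For Socs3, 1 isoform carried nearly all kept molecules. PB.14927.1 (chr11:117966079-117969453, 178 UMIs in 40 cells), a full splice match, covered all 675 coding bases, and its 5′ end lay inside the printed promoter window, downstream of the STAT motif. It held 5.91 ± 5.51 copies in L2C (SD, n = 6), 15.3 ± 15.3 in 4-cell (n = 5), 8.15 ± 6.54 in 8-cell (n = 4) and 0.40 in 16-cell embryos. The rise from E2C to L2C was called (2.28, adjusted p = 6.63e-04), as was the fall from 8-cell to 16-cell (fell by 2.11, adjusted p = 0.0136). It also passed the unadjusted rule upward from L2C to 4-cell (1.56, adjusted p = 0.164) and downward from 4-cell to 8-cell (fell by 1.54, adjusted p = 0.0705).

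For Spry4, the isoform PB.36136.83, a full splice match with all 900 coding bases, held 404 of the 437 kept UMIs. Its level in the isoform table did not follow the gene at E2C, where it was 10.2 ± 6.38 copies (SD, n = 5) while the gene stood at 75.04 ± 12.6. The isoform table kept 43.6% of Spry4 UMIs in oocytes, 25.3% in zygotes and 8.47% in E2C embryos (53 of 626). Whether this isoform took part in the rise of the gene therefore cannot be told. PB.36136.83 held 12.6 copies in oocytes and 9.32 in zygotes. Its fall from E2C to L2C was called (fell by 1.84, adjusted p = 0.00605), and its change from zygote to E2C was not.

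Counted over the 7 tested isoforms of members, none was called from oocyte to zygote, where 1.48% of 29409 isoforms were, and none from zygote to E2C (5.18%). From E2C to L2C 3 rose and 1 fell (26.0%). 1 rose from L2C to 4-cell (4.29%), 2 fell from 4-cell to 8-cell (7.93%) and 1 fell from 8-cell to 16-cell (1.97%). Isoforms of Stat3, Fgfr1, Etv5 and Dusp6 did not pass the filter. Those of Stat3 were 1 full splice match (8 UMIs) and 2 partial ones (10 UMIs each) that covered 6.36 and 18.3% of the coding bases.

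Run 4 held oocytes only, as isoform counts: 4 columns named oocyte with no split, taken as intact, with 182596 to 281036 UMIs, and 6 libraries each from 1/2 and 1/4 of an oocyte. Columns did not name the oocyte a fraction came from. Spry4 was read in every library, at 47 to 56 UMIs in intact oocytes, 24 to 62 in 1/2 and 25 to 91 in 1/4. Per 100,000 isoform UMIs this was 22.2 ± 2.55 copies in intact oocytes (SD, n = 4), against 13.7 ± 9.78 in the 10 oocytes of the earlier runs. Stat3 was at 14.7 ± 4.47 copies (n = 4), against 0.67 ± 0.57 in isoforms and 9.55 in the gene table of those oocytes. Runs were separate libraries and their difference was not tested.

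The fractions of an oocyte gave values near the intact ones. Spry4 held 19.0 ± 6.11 copies in 1/2 and 26.0 ± 7.40 in 1/4 oocytes (n = 6 each), and Stat3 12.2 and 17.3. Fgfr1 was at 1 to 8 UMIs in each intact oocyte and Il6st at 0 to 4. Socs3 and Dusp6 had 1 UMI each over the run. Fgf4, Fgfr2, Spry2 and Etv5 had no isoform in that table.

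**Figure D4:**
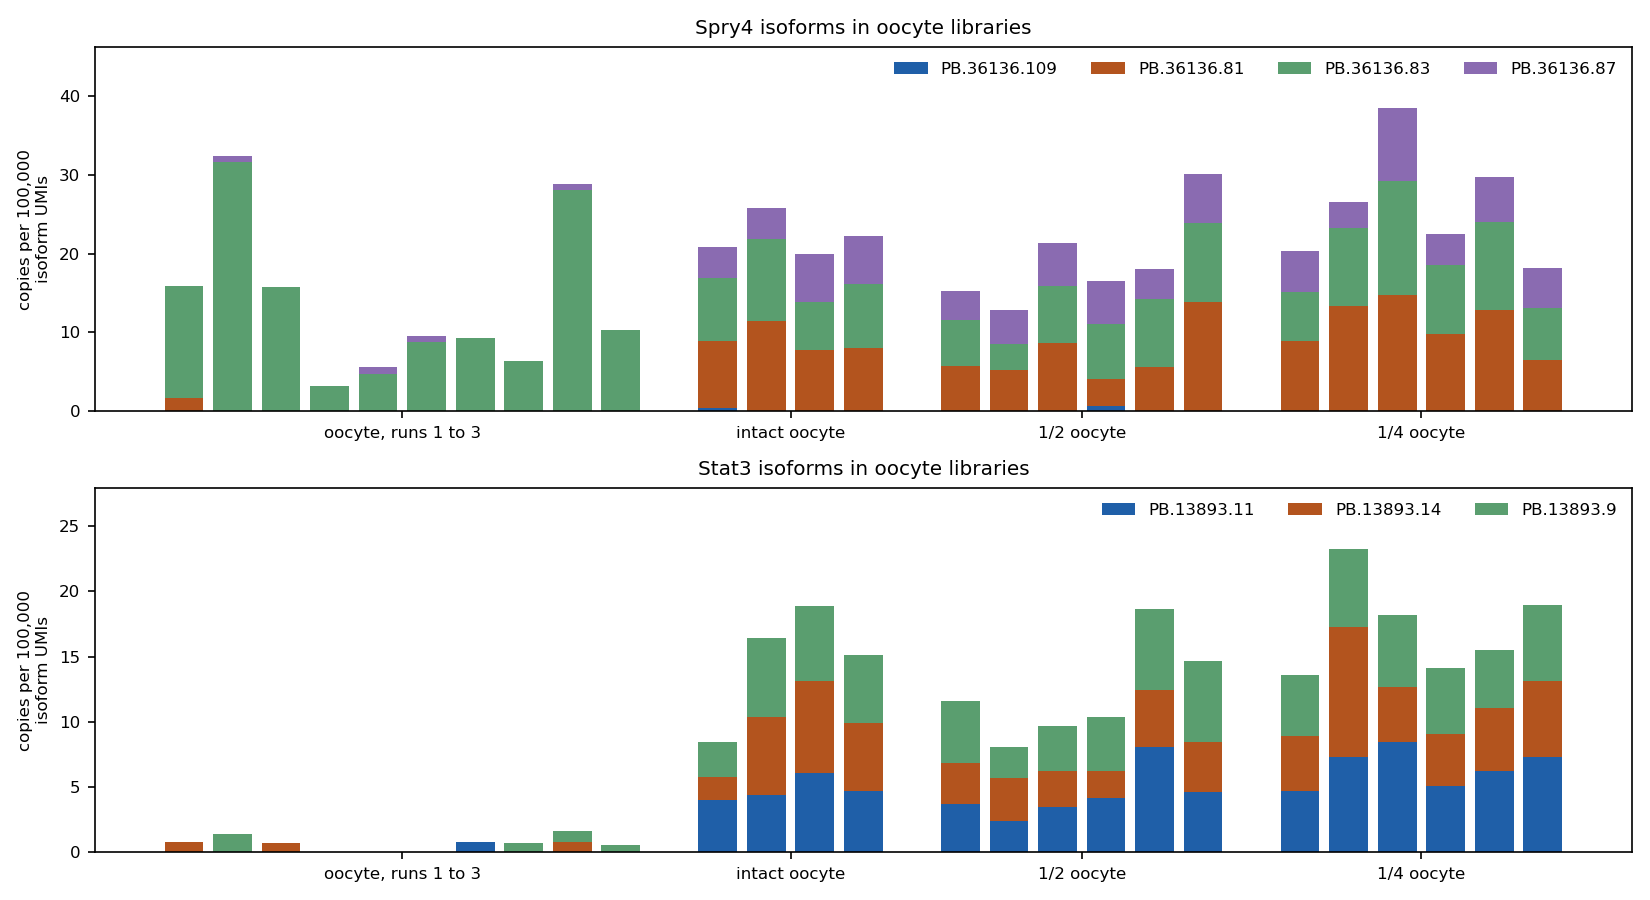
Stacked isoform levels of Spry4 and Stat3 in copies per 100,000 isoform UMIs, 1 bar for each library, in 10 oocytes of runs 1 to 3 and in 4 intact, 6 1/2 and 6 1/4 oocytes of run 4. Spry4 PB.36136.83 carried 96.7% of Spry4 UMIs in the earlier runs and 36.0% in intact oocytes of run 4.

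The runs also split Spry4 differently among its isoforms. In intact oocytes of run 4 PB.36136.81 carried 40.1% of Spry4 isoform UMIs, PB.36136.83 carried 36.0% and PB.36136.87 carried 23.4%. In the earlier runs PB.36136.83 carried 96.7%, PB.36136.87 2.20% and PB.36136.81 1.10%. All 3 cover the whole coding sequence. The isoforms of Stat3 were near equal in intact oocytes of run 4, at 32.8, 34.3 and 32.8% of its UMIs. Run and library could not be told apart here.

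Around the members, 90 other genes of both pathways were listed, 87 were in the table and 64 passed the filter. From E2C to L2C 9 rose and 16 fell, 25 of 64, where 48.4% of all genes were called, with a median log2 fold change of 0.05. At the other steps the share of the 64 called was 6.25% from oocyte to zygote (4 genes, beside 3.24% of all genes), 6.25% from zygote to E2C (4, beside 7.27%) and 7.81% from L2C to 4-cell (5, beside 6.69%). It was 10.9% from 4-cell to 8-cell (7, beside 15.0%) and 7.81% from 8-cell to 16-cell (5, beside 3.36%). By role, the feedback inhibitors had the most falls from E2C to L2C, with 6 of 8 tested genes lower and none higher, where 22.8% of all genes fell. Spry4 was lower too and Spry2 was not. Receptors and adaptors had 3 of 9 genes higher and none lower, where 25.6% of all genes rose. These roles are named for their counts, and no test of roles was run.

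Among the kinases, the MEK genes moved in opposite directions between E2C and L2C. Map2k1 (MEK1) went from 65.1 ± 3.59 copies in E2C to 6.72 ± 3.64 in L2C embryos (SD, n = 5 and 6; fell by 3.41, adjusted p = 3.12e-14). Map2k2 (MEK2) rose from 0.65 to 13.2 copies (log2 fold change 3.12, adjusted p = 2.26e-10). Mapk3 (ERK1) had risen a stage earlier, from 4.57 to 15.4 copies (1.61, adjusted p = 0.00114). Of the JAK kinases that act beside gp130, Jak1 went from 15.3 to 1.33 copies at E2C to L2C (fell by 2.77, adjusted p = 1.46e-09) and Jak2 from 30.5 to 10.2 at L2C to 4-cell (fell by 2.28, adjusted p = 0.00227, with overlap between embryos).

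The targets named by the rule differed among themselves. Pim3, a kinase gene induced by STAT3, rose with Socs3 from 0.54 to 15.4 copies between E2C and L2C (3.40, adjusted p = 3.76e-11). Klf4 and Tfcp2l1, pluripotency factors downstream of STAT3, rose from 4-cell to 8-cell, Klf4 from 1.47 to 7.81 copies (1.63, adjusted p = 0.00976) and Tfcp2l1 from 0.48 to 5.67 (2.28, adjusted p = 1.14e-04). Tfcp2l1 rose again to 19.6 copies at the 16-cell stage (1.56, adjusted p = 0.0345, with overlap), while Socs3 fell. Myc, a growth regulator that ERK induces, went from 6.70 to 0.72 copies at that step (fell by 1.92, adjusted p = 7.80e-04). Sall4, a pluripotency factor, had gone from 23.6 to 7.26 copies between zygote and E2C (fell by 1.36, adjusted p = 1.15e-04).

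The remaining genes named by the rule were a phosphatase, a phosphatase-family adaptor and a STAT inhibitor. Dusp7, an ERK phosphatase like Dusp6, went from 29.7 to 5.46 copies between L2C and 4-cell (fell by 2.04, adjusted p = 0.00277), the step at which Spry4 also fell. Ptpn11 (SHP2), which links receptors to RAS, went from 20.4 to 2.68 copies between 4-cell and 8-cell (fell by 1.86, adjusted p = 7.66e-04), and Pias1, an inhibitor of STAT proteins, from 5.02 to 1.31 (fell by 1.29, adjusted p = 0.0147). The embryos of both stages overlapped for these 3 genes.

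The genes most like each member over the 43 embryos are given as Pearson's r of log2(copies + 1), a description over points that share stage and depth. Fgf4 was most like H2-Q6 (0.93) and Riox1 (0.92), and Socs3 most like Zfp775 (0.93) and Ei24 (0.92). Spry4 was most like Mdm4 (0.93) and Jak2 (0.93), Il6st like Dnajb4 and Nanos2 (0.93 each) and Stat3 like Srgn (0.87) and Zbed3 (0.86). Spry2 was most like Ryr1 (0.87) and Sox13 (0.82), and Etv5 like Rad9a (0.82) and Naxe (0.80). The receptors had weaker matches, Fgfr2 with Prep (0.68) and Gata3 (0.67) and Fgfr1 with Tmem30a (0.66) and Cdc73 (0.61). Among the members themselves, Fgf4 and Socs3 had r = 0.81, Stat3 and Il6st 0.75, and Socs3 and Il6st -0.76.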

How the data were processed

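Single-cell HIT-scISOseq data of runs 1 to 3 (161 cells) and of run 4 (16 oocyte libraries) were used. SMRT-Link gave the authors their consensus reads, in which scISA-Tools found barcodes and UMIs. minimap2 placed the reads on mm10. Genes came from gffcompare, and isoforms from cDNA_Cupcake with SQANTI3 classes, of which only those in 5 or more cells stayed. The deposited gene and isoform values of runs 1 to 3 are CPM divided by 10, that is, copies per 100,000 UMIs. Deposited columns that hold a single cell each were recorded as a score in that same unit. GEO's labels name runs only, so stages and embryos were read from the column names. The deposited values of run 4 are UMI counts per isoform. Isoform values of a cell summed to 84419.2 to 97144.3, since the total was taken before rare isoforms were removed. The deposited transcript coordinates are on mm10 and were set beside GENCODE M21. Tables name cells and hold no barcodes, so shared barcodes could not be counted. The number of columns not used was 0. No doublet caller was run, since blastomeres had been picked one by one.

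Cells of an embryo were averaged. Stages from oocyte to 16-cell entered 1 limma fit (limma 3.58.1, R 4.3.3, trend and array weights) on log2(copies + 1), with adjacent stages as contrasts. A feature needed 1 copy per 100,000 or more in 4 or more embryos. The call rule was an absolute log2 fold change above 1 with a raw p below 0.01, and Benjamini-Hochberg adjusted p-values cover all features tested. The study used edgeR. Because the values are normalized, limma was the main test here. Each value gave a whole number of UMIs within 0.1 (100% of values in the lowest cell), and edgeR 4.0.16 and DESeq2 1.42.0 were run on those UMIs summed per embryo. Tests were first tried on simulated data. Other alternatives were pseudocounts of 0.5 and 5, no filter, no array weights, the median or a depth-weighted mean over cells, cells of 10000 UMIs or more, fits of 2 stages, and each embryo left out in stages of up to 5 embryos. After seeing the data, the L2C embryo with 1 blastomere was also left out. Limits from a count of 0 used 3 UMIs, and all intervals and limits cover counting error only.

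The members, the gene lists and the markers were chosen with earlier results of these data known. Named were all 10 members and, of the other pathway genes, for each comparison the 2 steepest rises and the 2 steepest falls at most, among called genes at 5 or more copies in the higher stage. No called gene reached that level from oocyte to zygote. Also named were the 2 genes most correlated with each tested member and up to 3 isoforms of a member with the most UMIs. Figures were drawn with matplotlib 3.10.9.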

Additional observations from a re-analysis of the deposited data

Results flagged for a closer look

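In 5 of 38 groups of embryos 1 value lay far from the others by Dixon's criterion, which flags about 1 group in 20 by chance. L2C embryo 1, read as 1 blastomere of 17971 UMIs, held 33.4 copies of Fgf4 where the other L2C embryos held 4.93 to 14.4, and 5.56 copies of Spry2 where they held 0.736 to 2.22. 4-cell embryo 2, which held the cell of 4985 UMIs, had 7.34 copies of Spry2 against 0 to 1.15 in the others. Zygote 8 had 6.35 copies of Fgfr2 against 1.21 to 3.21. 16-cell embryo 4 had 3.18 copies of Socs3 against 0.905 to 1.052. Without L2C embryo 1, 12 changes of members were called, as with it.

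Run 4, which entered no comparison of stages, held members too. Over its 4 intact oocytes 197 UMIs of Spry4, 134 of Stat3, 19 of Fgfr1 and 9 of Il6st were read, all above the limit of 3 that a count of 0 allows.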

How the results depend on the processing

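No paired analysis was possible because embryo numbers of different stages name different embryos. The 12 calls of members fell to 7 with a pseudocount of 5. The 8 calls of member isoforms fell to 3 with a pseudocount of 5, to 3 with edgeR and to 3 with DESeq2 (2 isoforms tested in each), to 5 with the median over cells and to 2 in fits of 2 stages. The 50 calls of other pathway genes fell to 17 with a pseudocount of 5, to 33 with DESeq2 (28 genes tested) and to 33 in fits of 2 stages. Leaving out 1 embryo gave 11 to 14 calls of members, 6 to 8 of isoforms and 48 to 52 of other pathway genes. The median share of cells with a UMI, over members and stages, moved from 40.5 to 11.7% when cells were thinned to 10000 UMIs. Of 346 recomputed fold changes of the 12 member calls, none changed sign and 17 missed the call rule. 7 of the 12 were called under every alternative that could test them. edgeR and DESeq2 tested 5 of the members, with 11 and 9 calls. Depth limits Dusp6, with 29 UMIs in all, and 32-cell, blastocyst and mESC cells cannot be tested without embryo names.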

Other observations

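In the blastocyst, the 3 cells that held an Fgf4 UMI also held Fgfr1, Etv5, Spry2 and Stat3, and only 1 of them held Fgfr2, at 2.39 copies. In 2 of these 3 cells, Fgf4, Fgfr1, Etv5 and Spry2 were read as 1 UMI each. Of the 10 cells without Fgf4, 9 held Fgfr2 (median 4.80 copies, up to 16.5), 2 held Fgfr1 and 2 held Etv5. Spry2 was in all 10 of them and Stat3 in 9, so these 2 genes did not set the cells with Fgf4 apart. Tdgf1, an epiblast gene, stood at 27.4 to 52.6 copies in the cells with Fgf4 and at 0 to 26.7 in the others. Krt8, a keratin of the trophectoderm, stood at 0 to 14.3 copies in the former and at 7.31 to 170 in the latter, and Gata3, another trophectoderm gene, was at 0 in all 3 cells with Fgf4 and was read in 6 of the 10 others. Krt18, another trophectoderm keratin, stood at 1.86 to 4.22 copies with Fgf4 and at 0 to 181 without. Gata6, of the primitive endoderm, stood at 1.86 to 4.78 copies with Fgf4 and at 1.88 to 32.9 without. Pou5f1, of the inner cell mass and epiblast, stood at 14.9 to 45.4 copies with Fgf4 and at 0 to 23.7 without. These ranges overlapped, with medians lower in the cells with Fgf4 for Krt18 and Gata6 and higher for Pou5f1. Nanog, Sox2 and Pdgfra did not divide this way. Nanog had a median of 4.78 copies with Fgf4 and 6.69 without, Sox2 was in 1 of 3 cells with Fgf4 and in 4 of 10 without (up to 20.9), and Pdgfra, a primitive endoderm gene, was in 2 of 3 and in 2 of 10. Depth was similar, with medians of 47437 and 48889.5 UMIs. The cells were divided by their Fgf4 reading after the values were seen and name no embryo, so these are values of single cells with no test.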
